A study of Mus musculus with 14 samples.

Results

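The 6 genes described here are Plet1os, Gm13490, Sec14l5, 1190007I07Rik, Exoc7 and Hal, measured in hind limb skeletal muscle of mice that are wild type (WT) or knockout (KO) for Myf6. They were selected by name, as 6 of the 49585 genes listed in both deposited expression tables, because their measured levels separated KO from WT libraries in both uninjured and injured muscle. The difference between KO and WT is therefore what chose them, and it is given below as a description without a test. The rule named genes and had no threshold.

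RNA was sequenced from 12 muscle libraries in 4 groups of 3: uninjured WT, uninjured Myf6 KO, injured WT and injured Myf6 KO. The labels give no allele, strain, sex or age, and how the muscle was injured, and how long before it was taken, is not given in the sources used here. Each library carries an animal number and the letter L (uninjured) or R (injured). The numbers 510 to 512 are WT and 292 to 294 are KO, and a shared number is read here as 1 animal that gave 1 muscle of each kind. No number occurs in both genotypes, so genotype cannot be told apart from litter or genetic background. A list of Flag-Myf6 binding peaks from primary myotubes, made with 1 ChIP library and 1 control, accompanied the RNA data.

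Myf6, also called MRF4, is a basic helix-loop-helix transcription factor of the MyoD family and is the member of that family with high levels in adult muscle fibres. Factors of this family bind DNA as dimers at short E-box motifs, written CANNTG. The 6 genes belong to no common pathway. Plet1os and Gm13490 are long non-coding RNAs, Sec14l5 encodes a lipid-binding protein, 1190007I07Rik a small mitochondrial protein, Exoc7 a subunit of the complex that tethers secretory vesicles, and Hal the first enzyme of histidine breakdown.

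Levels are given in RPM, that is the reads assigned to a gene, scaled to 1000000 reads per library. RPM is not divided by gene length, so levels are compared between libraries and not between genes. Library depth ranged from 1880087 to 49392472 reads, and 3 reads, taken as the floor of detection, correspond to 0.0607 to 1.596 RPM. The shallowest library was uninjured WT replicate 2. Reads on mitochondrial genes made up 3.63% to 23.2% of a library, with the highest share in injured KO replicate 2. Myf6 itself was at 25 to 111 RPM in uninjured WT and 1.86 to 3.46 RPM in uninjured KO muscle, and at 47.9 to 121 RPM against 2.88 to 3.32 RPM in injured muscle. The log2 differences were -3.90 and -4.22, with limma adjusted p values of 0.0215 and 0.00697, so every library matched its genotype label. Nothing in the labels says more about how replicates were taken, and p-values measure the spread between these samples. In bulk tissue, fewer cells of a type and less RNA per cell cannot be told apart.

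All 6 genes passed the filter on low values (3 or more libraries at 1 RPM or higher) in both injury states. Gm13490 and Hal did so through the libraries of the higher genotype only, as did Plet1os in injured muscle. In both states the KO libraries lay below every WT library for 5 of them and above every WT library for 1, Hal. Of the 12214 genes tested in both states, 386 (3.16%) separated with KO lower and 260 (2.13%) with KO higher. As the 6 genes were chosen for that separation, nothing is read from their count. When the 386 genes were ordered by the distance on the log2(RPM + 1) scale between the highest KO and the lowest WT library, taking the smaller of both states, Myf6 ranked 1, Gm13490 ranked 2 and Plet1os ranked 3. 1190007I07Rik ranked 5, Exoc7 ranked 8 and Sec14l5 ranked 22. Hal ranked 13 among the 260 genes higher in KO.

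**Figure D1:**
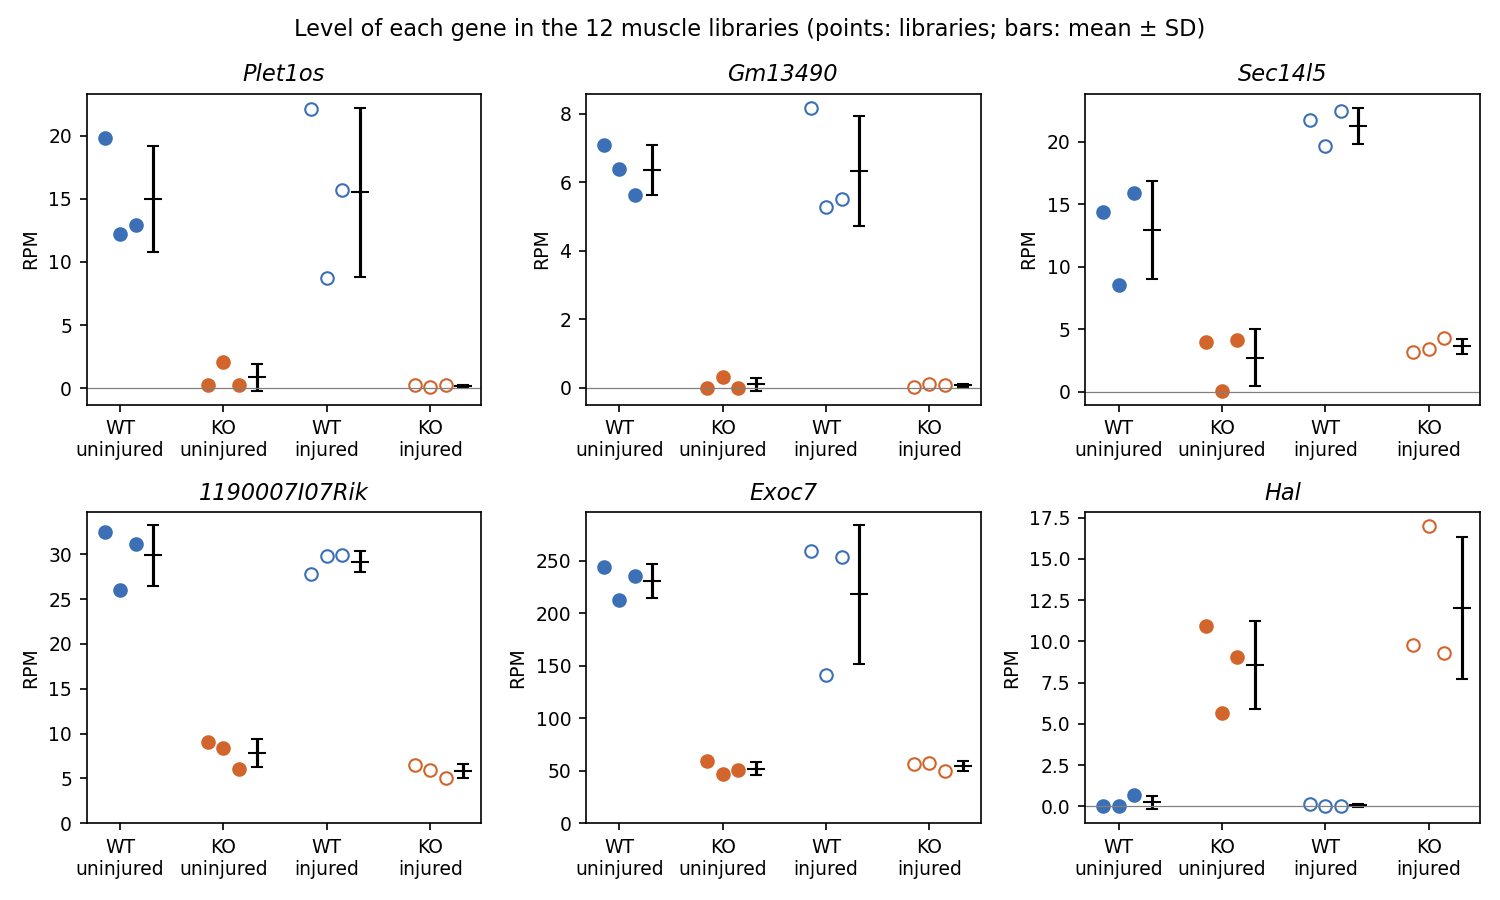
Level of the 6 genes in RPM (y axis, a linear scale per gene) in each of the 12 libraries, with replicates as points and the mean ± SD of 3 as bars. Plet1os, Gm13490, Sec14l5, 1190007I07Rik and Exoc7 are lower in all KO libraries than in any WT library of the same injury state, and Hal is higher. Uninjured KO replicate 2 stands apart for Sec14l5, at 0.0787 RPM.

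Plet1os (ENSMUSG00000101304.1) is annotated as a long non-coding RNA at chr9:50488799-50504805, minus strand (GRCm38.p6), and its name marks it as the opposite-strand transcript of Plet1. In uninjured muscle it was at 19.8, 12.2 and 12.9 RPM in the WT libraries. The uninjured KO libraries were at 0.266, 2.05 and 0.234 RPM, so replicate 2 stood above the other two. After injury the WT libraries were at 22.1, 8.72 and 15.7 RPM. The injured KO libraries were at 0.214, 0.0553 and 0.223 RPM, all lower than any WT library. The KO mean was 0.849 ± 1.04 RPM (SD, n = 3), or 5.67% of the WT mean of 14.98 ± 4.18 RPM (SD, n = 3), in uninjured muscle. In injured muscle it was 0.164 ± 0.0943 RPM (SD, n = 3), or 1.06% of 15.5 ± 6.71 RPM (SD, n = 3). The KO values rest on 43 reads in all before and 20 reads after injury. The difference, KO minus WT, was -3.22 (SE 0.45) and -3.74 (SE 0.33) on the log2(RPM + 1) scale. With a pseudocount of 0.1 RPM in place of 1 RPM the latter was -5.86. Plet1, which encodes a surface protein of placental and epithelial cells, overlaps Plet1os at chr9:50494525-50505639. It did not exceed 0.758 RPM in any library, so reads counted for Plet1os are not matched by a comparable number for Plet1. The library kit does not mark strand, and strand use in counting is not given in the sources used here, so reads of the overlapping stretch cannot be assigned to one of the pair.

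Gm13490 (ENSMUSG00000085014.1) is a long non-coding RNA of unknown role at chr2:51656966-51732009, minus strand. The uninjured WT libraries were at 7.08, 6.38 and 5.63 RPM, and the KO libraries at 0, 0.315 and 0 RPM. With 0 reads, levels of up to 0.114 RPM in replicate 1 and 0.0701 RPM in replicate 3 are possible. Injured WT muscle was at 8.18, 5.28 and 5.51 RPM, against 0.0268, 0.111 and 0.0810 RPM in KO. WT levels differed little between libraries and injury states, with means of 6.37 ± 0.724 and 6.32 ± 1.61 RPM (SD, n = 3). All 3 uninjured KO libraries together held 4 reads and all 3 injured KO libraries 7, against 403 and 394 in WT. Over the pooled reads that is a level 130 times higher in uninjured WT (95% exact interval 50.4 to 480) and 89.2 times higher in injured WT (42.9 to 223). These intervals cover counting error only. On the log2(RPM + 1) scale the differences were -2.74 (SE 0.35) and -2.75 (SE 0.22). They were -5.32 and -5.22 with a pseudocount of 0.1 RPM, since the KO level is near 0.

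Sec14l5 (ENSMUSG00000091712.1, chr16:5146906-5187271, plus strand) encodes a protein of the SEC14-like family, whose CRAL-TRIO domain binds lipids and small hydrophobic molecules. The uninjured WT libraries were at 14.4, 8.51 and 15.9 RPM. Uninjured KO libraries were at 3.96, 0.0787 and 4.14 RPM, and the low value of replicate 2 is a single read among 12704445. In injured muscle WT was at 21.8, 19.7 and 22.5 RPM and KO at 3.16, 3.43 and 4.31 RPM, with a narrow spread in both groups. The KO mean was 21.1% of WT in uninjured muscle (2.72 ± 2.29 against 12.9 ± 3.90 RPM, SD, n = 3) and 17.1% in injured muscle (3.63 ± 0.603 against 21.3 ± 1.46 RPM, SD, n = 3). The log2 differences were -2.16 (SE 0.61) and -2.27 (SE 0.18). Without uninjured KO replicate 2 the former was -1.42, so that library sets much of its size, and the gene remained lower in the other two KO libraries than in every WT library.

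1190007I07Rik (ENSMUSG00000063320.11) lies at chr10:82619851-82623228 on the minus strand and encodes a small inner membrane protein of mitochondria, known as brawnin or Uqcc6, that is needed to assemble respiratory complex III. Uninjured WT libraries were at 32.5, 26.1 and 31.2 RPM and uninjured KO libraries at 9.02, 8.34 and 6.08 RPM. Injured WT libraries were at 27.8, 29.8 and 30.0 RPM and injured KO libraries at 6.50, 5.98 and 5.02 RPM. Within each group the replicates lay close together, and the highest KO value was below the lowest WT value by a wide margin. The KO mean was 26.1% of WT in uninjured muscle (7.81 ± 1.54 against 29.9 ± 3.40 RPM, SD, n = 3) and 19.99% in injured muscle (5.83 ± 0.752 against 29.2 ± 1.18 RPM, SD, n = 3). These are log2 differences of -1.82 (SE 0.30) and -2.15 (SE 0.17). The 250 bases before its annotated start (chr10:82623229-82623478, minus strand, RefSeq GRCm38.p6) are shown because they hold more E-boxes than those of the other 5 genes. They read 5′ to 3′ along the gene, with each E-box in capitals.
1190007I07Rik: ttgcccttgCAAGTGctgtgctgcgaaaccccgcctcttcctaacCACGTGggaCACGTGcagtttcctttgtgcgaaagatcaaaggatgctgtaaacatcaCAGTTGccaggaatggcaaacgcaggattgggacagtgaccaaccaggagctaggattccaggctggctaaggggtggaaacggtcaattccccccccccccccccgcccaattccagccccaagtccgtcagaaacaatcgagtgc
The 4 E-boxes begin at positions -241, -205, -196 and -147 from the start, and those at -205 and -196 share the letters CACGTG.

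Exoc7 (ENSMUSG00000020792.15, chr11:116287997-116306750, minus strand) encodes Exo70, the exocyst subunit that binds the plasma membrane and so directs vesicles to sites of fusion. It had the most reads of the 6 genes. Uninjured WT libraries were at 243.9, 212.2 and 235.8 RPM and uninjured KO libraries at 58.9, 46.5 and 50.3 RPM. Injured WT libraries were at 259.6, 141.4 and 253.1 RPM, with replicate 2 lower than the other two, and injured KO libraries at 56.6, 57.3 and 49.2 RPM. The KO level was nearly the same in every library, from 46.5 to 58.9 RPM, and no WT library came near it. The KO mean was 22.5% of WT in uninjured muscle (51.9 ± 6.33 against 231 ± 16.5 RPM, SD, n = 3) and 24.9% in injured muscle (54.4 ± 4.44 against 218 ± 66.4 RPM, SD, n = 3). The log2 differences were -2.13 (SE 0.24) and -1.94 (SE 0.26). Its upstream sequence is shown because a Flag-Myf6 peak lies nearer to the start of this gene than to those of the other 5. The bases are chr11:116306751-116306984, minus strand, 5′ to 3′, with the E-box in capitals.
Exoc7: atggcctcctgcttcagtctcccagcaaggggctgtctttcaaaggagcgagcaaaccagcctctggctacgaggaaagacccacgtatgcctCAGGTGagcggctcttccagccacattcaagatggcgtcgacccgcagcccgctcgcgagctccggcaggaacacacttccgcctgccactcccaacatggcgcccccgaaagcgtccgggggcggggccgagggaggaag
This E-box, CAGGTG, begins at position -157 from the annotated start, chr11:116306734. The stretch shown holds 234 of the 250 bases searched and ends before that start, at the edge of the gene span.

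Hal (ENSMUSG00000020017.14, chr10:93488768-93516761, plus strand) encodes histidine ammonia-lyase, which converts histidine to urocanate and is best known from liver and skin. It was the only one of the 6 genes that was higher in KO. In uninjured WT muscle it was at 0, 0 and 0.692 RPM, and in uninjured KO muscle at 10.96, 5.67 and 9.02 RPM. In injured WT muscle it was at 0.150, 0 and 0 RPM, and in injured KO muscle at 9.77, 17.0 and 9.29 RPM. The 0 in uninjured WT replicate 2, the shallowest library, allows a level of up to 1.596 RPM, and those in the other WT libraries allow 0.0965 to 0.115 RPM. The transcript was thus near the floor in 5 of 6 WT libraries and well above it in all KO libraries. KO means were 8.55 ± 2.68 and 12.02 ± 4.31 RPM (SD, n = 3). The WT libraries held 21 reads in uninjured and 2 reads in injured muscle, against 746 and 1131 in KO. Over the pooled reads the KO level was 27.5 times higher (95% exact interval 17.9 to 44.7) and 357 times higher (98.6 to 2951), with intervals for counting error only. On the log2(RPM + 1) scale the differences were 2.96 (SE 0.41) and 3.59 (SE 0.27), and with a pseudocount of 0.1 RPM 5.39 and 6.42. Hal and 1190007I07Rik are on the chromosome of Myf6 (chr10:107492848-107494723), at 13.976 and 24.87 Mb from it. The sequence before the start of Hal is shown as that of the gene that moved the other way (chr10:93488518-93488767, plus strand, 5′ to 3′, E-boxes in capitals).
Hal: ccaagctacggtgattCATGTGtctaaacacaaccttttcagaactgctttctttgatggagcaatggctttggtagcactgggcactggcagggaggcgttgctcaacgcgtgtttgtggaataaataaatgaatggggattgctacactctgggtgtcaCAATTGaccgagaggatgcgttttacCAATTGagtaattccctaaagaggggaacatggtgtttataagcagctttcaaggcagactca
Its 3 E-boxes begin at positions -234, -89 and -63, and the pair nearest to the start shares the letters CAATTG.

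The 5 genes lower in KO differed in how far below WT they were. The KO means of Plet1os and Gm13490 were 1.06% to 5.67% of the WT means, and those of Sec14l5, 1190007I07Rik and Exoc7 were 17.1% to 26.1%. Pearson's r of log2(RPM + 1) over the 12 libraries was 0.96 to 0.984 among Plet1os, Gm13490, 1190007I07Rik and Exoc7. It was 0.755 to 0.865 between Sec14l5 and these 4 genes, and -0.977 to -0.786 between Hal and the other 5. With Myf6, r was 0.918 for Plet1os, 0.943 for Gm13490, 0.852 for Sec14l5, 0.952 for 1190007I07Rik, -0.932 for Hal and 0.916 for Exoc7. These values describe the choice of the genes, because the genotype groups set them, and the libraries they rest on share depth and animals.

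Other genes followed nearly the same pattern over the 12 libraries. The 3 most like Plet1os by Pearson's r were Hgsnat, a lysosomal enzyme of heparan sulfate breakdown (0.960), the non-coding D830026I12Rik (0.954) and the zinc finger gene Zfp429 (0.947). For Gm13490 they were D830026I12Rik (0.971), Gm42047 (0.970) and Hgsnat (0.969). Sec14l5 was most like B3galnt2, a glycosyltransferase that modifies dystroglycan (0.965), Pak1ip1 (0.960) and Gm39469 (0.956). 1190007I07Rik was most like 2310020H05Rik (0.958), Gm42047 (0.954) and Myf6 itself (0.952). Exoc7 was most like D830026I12Rik (0.989), Zfp429 (0.979) and Piwil2, which acts in piRNA silencing of the germ line (0.9748). Hal was most like Gm13123 (0.985), Gm20305 (0.985) and Gm8420 (0.979), of which Gm20305 and Gm8420 are annotated as pseudogenes. D830026I12Rik thus occurs among the 3 nearest genes for 3 of the 6. Its means were 5.72 RPM in uninjured WT, 0.0156 in uninjured KO, 4.15 in injured WT and 0.117 in injured KO muscle.

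Whether injury moved the 6 genes was tested within each genotype, a contrast that did not choose them. In WT muscle 0 of the 6 genes passed a limma adjusted p of 0.05, and neither did any of the 13337 genes tested (0%). Before adjustment, 172 genes had a p under 0.05, and edgeR and DESeq2 also called 0. In KO muscle 0 of 6 and 0 of 13337 genes passed (0%). Before adjustment 468 had a p under 0.05, and 0 were called by edgeR and DESeq2. None of the 6 genes had an unadjusted p under 0.05 in either genotype. Differences are injured minus uninjured on the log2(RPM + 1) scale, each with its 95% interval. The fits that gave them did not pair the libraries by animal.

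On this scale Sec14l5 had the largest estimates in both genotypes. In WT it was 0.72 higher in injured muscle (-0.35 to 1.79, limma adjusted p 1.0), and higher in 3 of 3 animals, by 0.562, 1.119 and 0.475. In KO the estimate was 0.61 (-0.46 to 1.68, limma adjusted p 0.729), which came from animal 2 alone, at 2.038, against -0.253 and 0.048 in the others. Without uninjured KO replicate 2 the KO estimate was -0.13. Plet1os differed by -0.01 in WT (-0.89 to 0.87, limma adjusted p 1.0) and by -0.53 in KO (-1.42 to 0.35, limma adjusted p 0.728), with -1.529 in animal 2 and -0.061 and -0.013 in the others. The same animal, number 293, thus gave the extreme KO value for both genes.

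1190007I07Rik was lower in injured muscle in 3 of 3 KO animals, by -0.416, -0.422 and -0.233, with an estimate of -0.36 (-0.86 to 0.15, limma adjusted p 0.728). In WT its estimate was -0.03 (-0.53 to 0.48, limma adjusted p 1.0). Hal differed by 0.44 in KO (-0.29 to 1.17, limma adjusted p 0.728), with 1.432 in animal 2 and -0.151 and 0.038 in the others, and by -0.19 in WT (-0.92 to 0.55, limma adjusted p 1.0). The estimates of Gm13490 and Exoc7 were -0.03 (-0.60 to 0.55) and -0.13 (-0.66 to 0.40) in WT, each with a limma adjusted p of 1.0. In KO they were -0.03 (-0.61 to 0.54, limma adjusted p 0.972) and 0.07 (-0.46 to 0.59, limma adjusted p 0.922). Hal in WT (21 reads before and 2 after injury) and Gm13490 and Plet1os in KO (4 and 7, and 43 and 20 reads) are near the floor, where adding 1 RPM holds the estimate near 0. The read-based log2 fold changes were larger there: -3.10 with edgeR and -2.90 with DESeq2 for Hal in WT, and -2.45 and -2.76 for Plet1os in KO. The intervals hold for the log2(RPM + 1) scale and do not bound the fold change of these genes, and a missed threshold does not show that a gene did not respond.

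The interaction asked whether the KO minus WT difference itself changed with injury. Again 0 of 6 and 0 of 13337 genes passed with limma (0%). The 6 genes were chosen by the KO minus WT differences of both states, from which the interaction is formed. Their estimates and p values here are therefore a description, and nothing is read from their count. Before adjustment 208 had a p under 0.05, and 0 were called by edgeR and DESeq2. The estimate was -0.52 for Plet1os (95% interval -1.77 to 0.72), -0.01 for Gm13490 (-0.82 to 0.81) and -0.11 for Sec14l5 (-1.62 to 1.41). It was -0.33 for 1190007I07Rik (-1.04 to 0.38), 0.63 for Hal (-0.41 to 1.66) and 0.20 for Exoc7 (-0.54 to 0.94), all with a limma adjusted p of 0.9999. For Plet1os it was -2.41 with edgeR and -2.71 with DESeq2, and for Hal 3.32 and 3.12, and each has a genotype near the floor. For Sec14l5 the interval spans more than 1 log2 unit on both sides of 0. The uninjured and injured comparisons of KO with WT share no library, but they share animals.

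**Figure D2:**
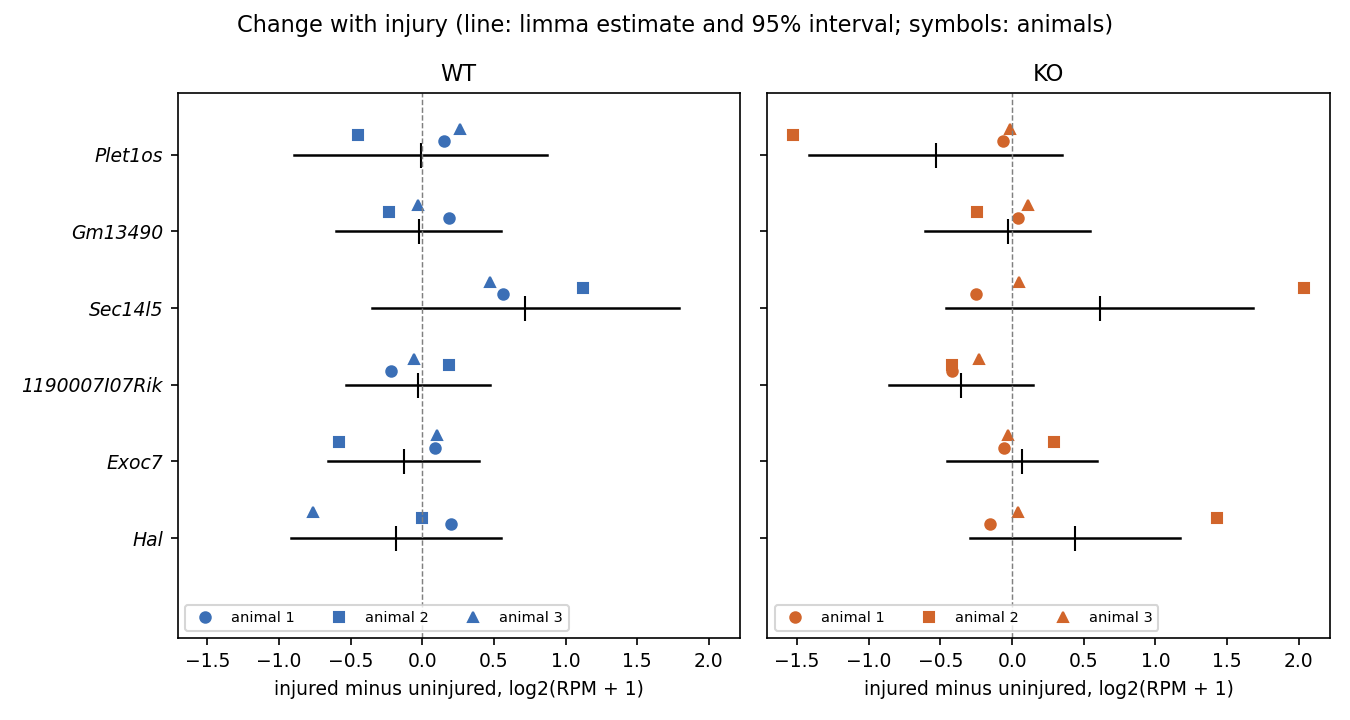
Injured minus uninjured muscle on the log2(RPM + 1) scale (x axis) for each gene (y axis), in WT (left) and KO (right). Horizontal lines are limma estimates with 95% intervals, fitted without pairing by animal. Symbols are the differences within each of the 3 animals of a genotype. Every interval includes 0, and KO animal 2 lies far from the other KO animals for Plet1os (-1.529), Sec14l5 (2.038) and Hal (1.432).

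Genes that act with Hal were examined as a list of 15 for the breakdown, transport and use of histidine, which muscle also joins with beta-alanine to make the buffer carnosine. Of these, 9 were tested between KO and WT in each injury state, and 0 passed with limma, against 35 of 12460 genes (0.281%) in uninjured and 34 of 12625 (0.269%) in injured muscle. Before adjustment, 2 genes had a limma p under 0.05 in each state, beside 1774 of 12460 and 1303 of 12625 over all genes. The list's median difference was -0.23 and 0.08, beside -0.18 and 0.01 over all genes tested. The enzymes that act after Hal were hardly detected: the group means of Uroc1 (urocanate hydratase), Amdhd1 (imidazolonepropionase) and Ftcd (formiminotransferase) did not exceed 0.169 RPM. Slc38a3, a transporter of glutamine and histidine, was at 68.1 ± 30.7 RPM in WT and 21.9 ± 2.77 RPM in KO uninjured muscle (SD, n = 3). In injured muscle it was at 73.0 ± 10.4 and 31.96 ± 20.7 RPM (SD, n = 3). The differences of -1.49 (SE 0.36) and -1.33 (SE 0.41) did not pass (limma adjusted p 0.133 and 0.347), and every KO library was below every WT library. Without injured KO replicate 2 the latter was -1.81 and passed. Leaving out that library raised the calls over all genes from 34 to 2343 of 12312, and this holds for each gene below that passed without it. Carns1, which makes carnosine, differed by -0.89 (SE 0.29) and -0.50 (SE 0.47), with limma adjusted p values of 0.216 and 0.756, and by -1.08 without injured KO replicate 2, which passed. Cndp2, which splits carnosine and other dipeptides, differed by 0.37 (SE 0.28) and 0.12 (SE 0.20), with limma adjusted p values of 0.592 and 0.870.

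The other exocyst subunits were listed with their paralogs and the small GTPases that bind the complex, 15 genes in all. All 15 were tested and 0 passed between KO and WT in either state. Before adjustment, 1 (Exoc1) had a limma p under 0.05 in uninjured muscle and 0 in injured muscle. Over all genes these were 1774 of 12460 and 1303 of 12625. The median difference was -0.07 and 0.22. Cdc42, a GTPase of cell polarity, differed by -0.33 (SE 0.37) and -0.03 (SE 0.23), with limma adjusted p values of 0.734 and 0.982. Rhoq, also called TC10, binds Exo70 in the delivery of glucose transporters, and differed by -0.41 (SE 0.48) and 0.24 (SE 0.38), with limma adjusted p values of 0.752 and 0.870. The latter was 0.67, and passed, without injured KO replicate 2. Exoc4, another subunit, was at 40.1 ± 9.82 RPM in WT and 46.7 ± 8.74 RPM in KO uninjured muscle (SD, n = 3), a difference of 0.23 (SE 0.29, limma adjusted p 0.772). After injury the difference was again 0.23 (SE 0.17, limma adjusted p 0.680). Exoc1, a subunit named after its values were seen, was at 26.8 ± 2.03 RPM in WT and 11.2 ± 3.26 RPM in KO uninjured muscle (SD, n = 3). There every KO library was below every WT library, a difference of -1.22 (SE 0.32, limma adjusted p 0.153). After injury the libraries overlapped, at -0.25 (SE 0.385, limma adjusted p 0.860). Without injured KO replicate 2 the latter was -0.71 and passed. Whether Exoc7 differs from the other subunits was not tested.

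Of 14 other proteins with a SEC14-like domain, 5 were tested in uninjured and 6 in injured muscle, and 0 passed. Before adjustment, 2 and 3 of them had a limma p under 0.05, beside 1774 of 12460 and 1303 of 12625 over all genes. The median difference was -0.12 and -0.17. Bnip2, a regulator of small GTPase signalling, differed by -0.08 (SE 0.25) and 0.22 (SE 0.15), with limma adjusted p values of 0.916 and 0.662. Sec14l1 differed by -0.12 (SE 0.46) and 0.13 (SE 0.19), with limma adjusted p values of 0.937 and 0.855. Mospd2 and Prune2, named after their values were seen, separated KO from WT libraries in both states, in opposite directions. Mospd2 differed by -1.47 (SE 0.45) and -0.48 (SE 0.19), with limma adjusted p values of 0.203 and 0.457. Prune2 differed by 0.69 (SE 0.36) and 0.94 (SE 0.24), with limma adjusted p values of 0.420 and 0.278. Its injured difference was 0.95, and passed, without injured KO replicate 2. Ttpal, a relative of the vitamin E transfer protein, was at 11.1 ± 1.99 RPM in WT and 4.79 ± 3.08 RPM in KO uninjured muscle (SD, n = 3), and at 13.1 ± 1.85 against 7.74 ± 3.39 RPM after injury (SD, n = 3). Its differences of -1.22 (SE 0.48) and -0.75 (SE 0.29) did not pass (limma adjusted p 0.293 and 0.445), and the latter was -1.05, and passed, without injured KO replicate 2.

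Respiratory complex III, which 1190007I07Rik helps to assemble, passes electrons from ubiquinol to cytochrome c. All 17 listed subunits and assembly factors were tested and 0 passed between KO and WT. Before adjustment, 3 had a limma p under 0.05 in uninjured and 4 in injured muscle. Over all genes these were 1774 of 12460 and 1303 of 12625. The median difference was -0.16 and -0.25. Uqcrc1, a core subunit, differed by 0.27 (SE 0.24) and 0.05 (SE 0.24), with limma adjusted p values of 0.657 and 0.963. Uqcrq, a small subunit, differed by -0.33 (SE 0.32) and -0.33 (SE 0.27), with limma adjusted p values of 0.695 and 0.709. Uqcrb, Lyrm7 and Uqcrh, named after their values were seen, were lower in every KO than in any WT library in both states. Uqcrb, a small subunit, was at 541 ± 90.5 RPM in WT and 282 ± 49.1 RPM in KO uninjured muscle and at 522 ± 24.96 and 323 ± 9.52 RPM after injury (SD, n = 3), differences of -0.94 (limma adjusted p 0.159) and -0.69 (limma adjusted p 0.218). Lyrm7, which inserts the iron-sulfur subunit, differed by -0.98 (SE 0.38) and -1.13 (SE 0.19), with limma adjusted p values of 0.286 and 0.104. Without injured KO replicate 2 the injured differences were -0.66 for Uqcrb and -1.08 for Lyrm7, and both passed. Uqcrh differed by -0.42 (SE 0.24) and -0.33 (SE 0.16), with limma adjusted p values of 0.463 and 0.551. The mitochondrially encoded subunit mt-Cytb differed by -1.22 (SE 0.50) and -0.52 (SE 0.65), with limma adjusted p values of 0.314 and 0.825. Injured KO replicate 2, the library with the highest mitochondrial share, moved the injured value: without it mt-Cytb differed by -1.27 and passed. With injury, 0 genes of the 4 lists passed in WT or KO muscle, and before adjustment 1 had a p under 0.05 in WT and 0 in KO.

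**Figure D3:**
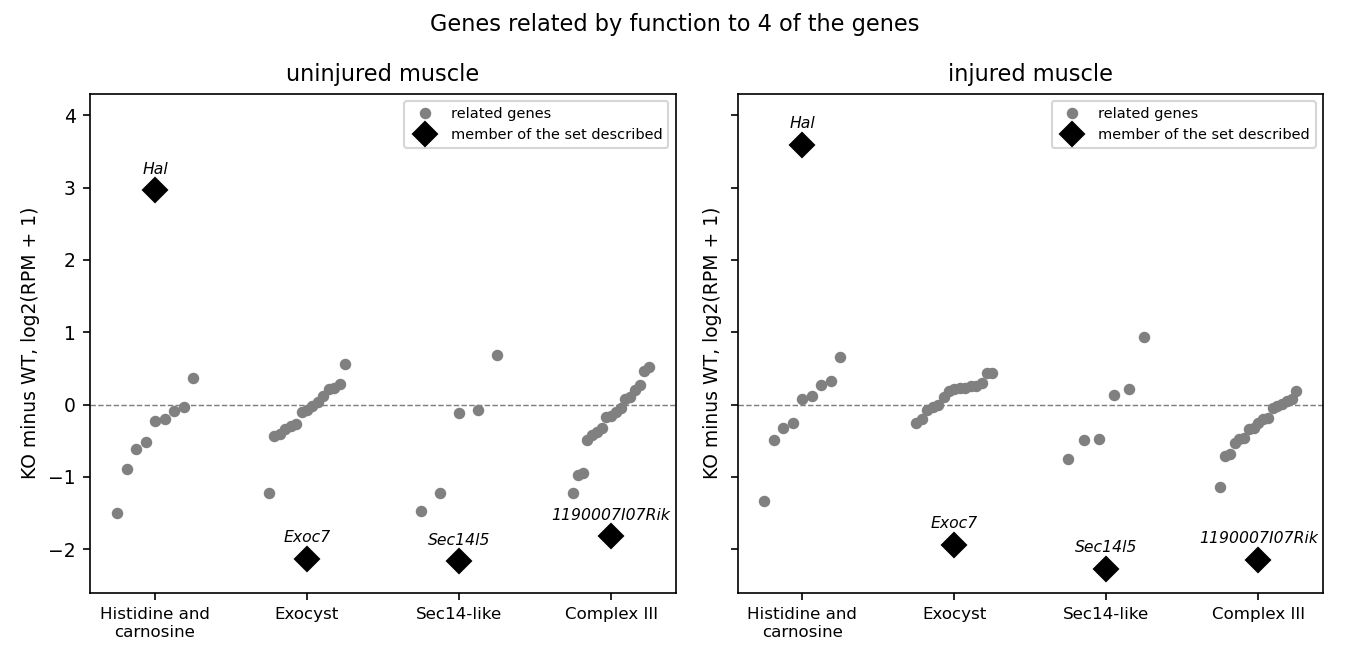
KO minus WT difference on the log2(RPM + 1) scale (y axis) of each tested gene of the 4 lists (grey circles, spread along the x axis by rank) and of the gene each list was drawn up for (black diamonds), in uninjured (left) and injured (right) muscle. Hal lies above its list at 2.96 and 3.59, and Exoc7, Sec14l5 and 1190007I07Rik lie below theirs at -2.27 to -1.82. The diamonds were chosen for this difference.

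Neighbouring genes were read from the gene table as the nearest on each side of each of the 6 genes, and any that overlap. Of 12 such genes with values, 0 separated KO from WT in both states. Over the 12214 genes tested in both states the shares were 3.16% (KO lower) and 2.13% (KO higher). Those shares are over genes that passed the filter on low values, which was not applied to the neighbours. In uninjured muscle only, Ppl and Lta4h were lower and Amdhd1 higher in every KO library than in any WT library. In injured muscle only, this held for Plet1, Pts, Tdg and Galr2 (lower) and Nagpa (higher). The share of all genes that separate in 1 state only was not counted, so nothing is read from the number of these neighbours. Plet1 and Amdhd1 were near the floor. Beside Hal, Lta4h, which makes leukotriene B4, had means of 28.2 RPM in WT and 19.1 RPM in KO uninjured muscle and of 32.8 and 27.8 RPM after injury. Amdhd1 lies 6577 bp from Hal on its other side and did not exceed 0.277 RPM. Its means were 0 RPM in WT and 0.130 RPM in KO uninjured muscle, with every KO library above WT, and 0.0128 and 0.169 RPM after injury. Beside 1190007I07Rik, the DNA glycosylase gene Tdg had means of 1.53 and 0.513 RPM before and 3.31 and 1.07 RPM after injury, and Ap3m1-ps was listed at 0 in all libraries. Beside Sec14l5, Ppl, which encodes periplakin, had means of 7.84 and 3.86 RPM before and 10.3 and 7.59 RPM after injury. Nagpa had means of 4.19 and 6.55 RPM before and 5.47 and 6.60 RPM after injury. Next to Plet1os, Pts, an enzyme of tetrahydrobiopterin synthesis, had means of 20.6 and 11.2 RPM before and 19.97 and 14.5 RPM after injury. The neighbours of Exoc7 were low. Galr2 had means of 0.579 RPM in WT and 0.0390 RPM in KO before injury, and of 0.771 and 0.106 RPM after injury. Gm26730 was at 0.225 RPM or less. Tas2r134 and Gm13493, next to Gm13490, did not exceed 1.06 and 0.562 RPM.

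Marker genes of the tissue and of other cell types were summed in each library. The 8 muscle fibre markers, all detected, summed to 79610 to 95727 RPM in uninjured WT and 124786 to 134490 RPM in uninjured KO muscle, so the sum was higher in KO. Taken singly, 2 of the 8 genes were higher in every uninjured KO library and 0 were lower. Myh4 (40979 to 93275 RPM over the 12 libraries) and Acta1 (14358 to 33789 RPM) made up most of the sum. After injury the sums overlapped, at 85807 to 105748 RPM in WT and 85645 to 120572 RPM in KO. Hal is known from skin and liver, and the markers of both were checked. The keratinocyte list summed to 10.8 to 17.6 RPM in uninjured WT against 6.05 to 10.2 RPM in KO, and to 12.2 to 14.2 RPM in injured WT against 6.81 to 8.75 RPM in KO. This sum was carried by Trp63 (2.59 to 12.2 RPM) and Krt10 (2.96 to 5.32 RPM), and only 1 of its 8 genes was lower in every KO library in each state. Of the 8 genes 3 were at 0 in every library (Krt5, Krt15 and Dsg1a), and Krt14 did not exceed 0.0405 RPM. The 4 hepatocyte markers summed to 1.05 RPM or less in every library, with Alb at 0.912 RPM or less. The sum of the macrophage markers (4 genes) overlapped in uninjured muscle, at 21.3 to 42.0 RPM in WT and 16.0 to 25.9 RPM in KO. It was lower in injured KO (23.7 to 24.1 RPM) than in injured WT (25.2 to 35.3 RPM). Taken singly, 0 of the 4 genes were lower in every injured KO library, and 2 were in uninjured muscle. The sums of the fibroblast, endothelial, adipocyte, Schwann cell and red blood cell lists overlapped between genotypes in both states. Taken singly, 2 of 5 fibroblast genes were lower in every uninjured KO library and 1 in every injured one. In injured muscle 2 of 4 endothelial genes were higher in every KO library. In uninjured muscle 1 of 4 adipocyte genes was higher in every KO library. There 1 of 4 Schwann cell and 1 of 4 red blood cell genes were lower. How often single genes separate in 1 state over all genes was not counted. The part of these differences in the levels of the 6 genes was not tested.

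Flag-Myf6 binding was read from 12898 peaks called by the authors in primary myotubes, with fold enrichment as their peak caller gave it and no replicate. Myotubes in culture are not adult muscle, and no peak speaks to the KO tissue. The submitters' processing notes name the builds mm10 and GRCm38.p5, and as a check 287 of 32851 RefSeq promoter windows held a peak summit, against 71 when the windows were moved by 10000 bp. The median distance from a gene start to the nearest summit was 71639 bp, and 9.79% of genes had a peak within them. That share is over the 49997 genes of the gene table and was not matched to the 6 genes for length or level. Of the 6 genes, 4 had a peak within them: Exoc7 and Sec14l5 2 each, Plet1os and Gm13490 1 each. None of the 6 had a summit in the 250 bases before its start.

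Exoc7 had the nearest peak, with its summit 5827 bp upstream of the start (chr11:116312442-116312672, fold enrichment 11.03), and 8.29% of all starts had a summit as near. Its 2 internal peaks had fold enrichments of 7.74 and 6.04, and 8 peaks lay within 100 kb. The summit nearest to Sec14l5 was 12219 bp upstream (chr16:5134810-5134936, fold 5.32), a distance met by 15.1% of starts, and its internal peaks had folds of 9.66 and 8.69. Plet1os had a summit 13069 bp downstream within the gene (chr9:50491649-50491811, fold 8.19), a distance met by 15.9% of starts. A much stronger peak lay 47009 bp downstream of its start (chr9:50457675-50458013, fold 35.3). For Hal the nearest summit was 25560 bp upstream (chr10:93463096-93463292, fold 13.5), a distance met by 26.5% of starts. The peak of Gm13490 lay 73478 bp from its start (chr2:51658437-51658597, fold 8.05), a distance met by 50.3% of starts. 1190007I07Rik had no peak within 100 kb, with the nearest at 151806 bp (chr10:82774988-82775119, fold 6.29), a distance met by 68.5% of starts. Distance to a peak therefore ranged from 5827 to 151806 bp among the 5 genes that were lower in KO. With peaks of at least 10-fold enrichment only, the distance was unchanged for Exoc7 and Hal. It became 47009 bp for Plet1os, 27077 bp for Sec14l5, 210834 bp for 1190007I07Rik and 619210 bp for Gm13490.

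**Figure D4:**
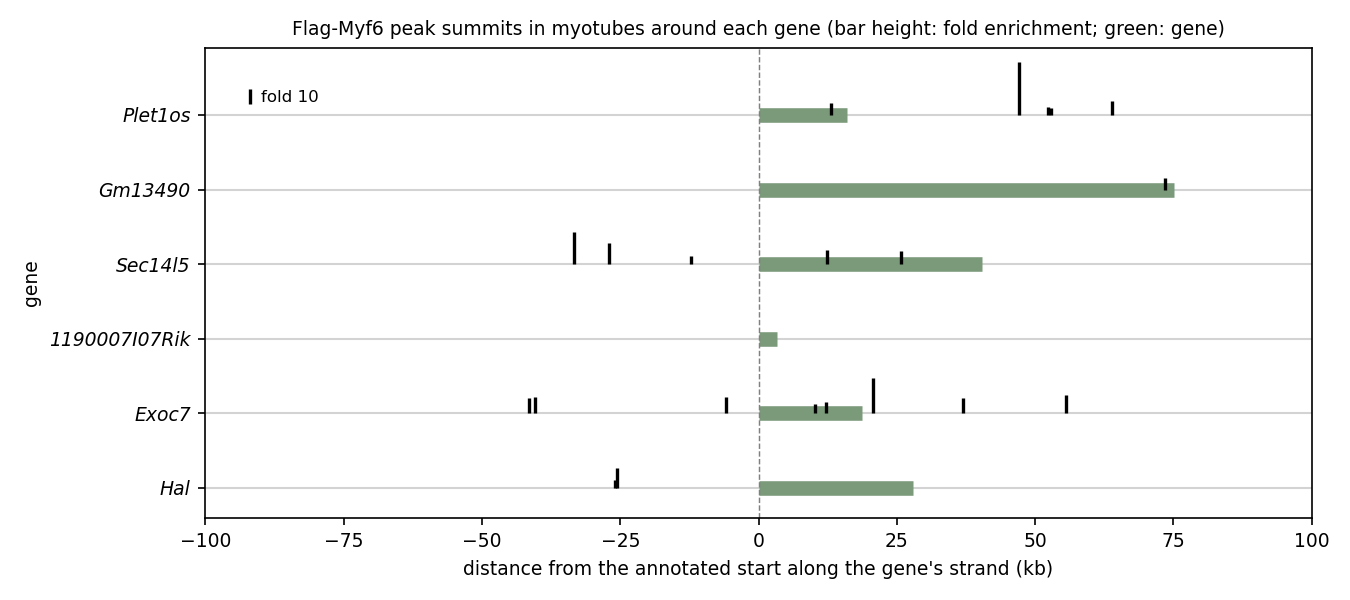
Flag-Myf6 peak summits in myotubes within 100 kb of the start of each gene (x axis, distance along the gene's strand in kb; y axis, gene). Bar height gives the authors' fold enrichment and green bars span the gene. Exoc7 has 8 peaks in the window, Plet1os and Sec14l5 have 5 each, Hal 2, Gm13490 1 and 1190007I07Rik 0.

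The motif search covered the 250 bases before each RefSeq start for CANNTG, which reads the same on both strands. An E-box occurred in 66.2% of the 32851 promoters, with a median of 1. Of the 6 genes 4 held one: 4 in 1190007I07Rik, 3 in Hal, 1 in Exoc7 and 1 in Gm13490 (CAAATG at position -144). No CANNTG was found in this window of Plet1os or Sec14l5. The form CAGCTG, which occurred in 13.0% of promoters, was in none of the 6. The gene with the most E-boxes, 1190007I07Rik, had the most distant peak when all peaks are counted. With peaks of at least 10-fold enrichment that was Gm13490.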

How the data were processed

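The 6 genes and all gene lists were chosen with earlier results of these data known. RNA was extracted with Trizol and made into libraries with the TruSeq RNA v2 kit, per the labels' protocols. The authors deposited RPM values per gene and library in 2 tables, one per injury state, with 49585 genes each. The submitters' processing notes name HISAT2 2.1.0, Bowtie 1.1.0, SAMtools, featureCounts, DESeq2, MACS2 2.1.0.20140616 and the builds mm10 and GRCm38.p5, with no role or order given. The deposited log2 fold change, p-value and q-value columns of the authors were not used here. For the peaks, the deposited list gives the authors' pileup signal at the summit, fold enrichment, and −log10 of both p-value and q-value, as named per the file headers, from 1 ChIP library.

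Whole reads were recovered from the smallest step of the RPM values of a library, and 100% of tested values came out whole within 0.1 read. Differences were estimated on log2(RPM + 1) with limma 3.58.1 (R 4.3.3; lmFit, eBayes with trend). Genes entered a fit if 3 or more of its libraries reached 1 RPM. P-values are two-sided and Benjamini-Hochberg adjusted over all genes, with a threshold of 0.05. KO against WT was fitted on the 6 libraries of a state, injury and interaction on all 12. The design foresaw edgeR for counts, but the tables hold RPM, so edgeR 4.0.16 and DESeq2 1.42.0 were run on recovered reads as alternatives. Other alternatives were TMM and upper quartile scaling, a pseudocount of 0.1 RPM, other filters, a replicate block and each library left out. The fits were also run on simulated counts, drawn independently with the same dispersion for every gene. These lack any effect of a single animal or library, so that run does not show how the fits behave on these data.

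Injured and uninjured libraries of a genotype are paired by animal, from the numbers in the labels. The main injury and interaction fits did not use this pairing and treated the 12 libraries as separate samples. Of the alternatives, only the replicate block used it, with the animal as the block in these comparisons. Deviations of paired libraries from their group means correlated at 0.278, -0.231 and 0.016 in WT and 0.024, 0.504 and 0.628 in KO. Named genes were the 6 genes and Myf6, related genes that passed or else the 3 of each list with the highest mean RPM, the nearest neighbours, and the 3 genes with the highest Pearson's r. Exoc1, Mospd2, Prune2, Uqcrb, Lyrm7 and Uqcrh were named in addition, after their values were seen. Intervals of read ratios are exact at 95%. Gene positions and promoters are from RefSeq GRCm38.p6, in which all 6 genes matched. Proteins and a genome were not used here.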

Additional observations from a re-analysis of the deposited data

How the results depend on the processing

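The KO minus WT difference of all 6 genes kept its direction under TMM and upper quartile scaling, a pseudocount of 0.1 RPM and the leaving out of each library where a value could be fitted. Leaving out 1 library of the high group took Plet1os (injured), Gm13490 and Hal below the filter, so those gave no value. TMM scaling moved the median of all genes in uninjured muscle from -0.18 to 0.02, and that of KO injured minus uninjured from 0.29 to 0.07. In the injury and interaction comparisons 0 of the 6 genes passed under every alternative in which they were fitted, the replicate block included. For the interaction this is a description, as the 6 genes were chosen by the differences that form it. With at least 1 RPM in every library only 1190007I07Rik and Exoc7 were fitted. The lowest adjusted p was 0.228 (1190007I07Rik, KO injury). Of the related genes, the 0 that passed for KO against WT in uninjured muscle became 3 with DESeq2 (Exoc1, Mospd2 and Slc38a3) and 4 with the replicate block (Uqcrb in addition). In injured muscle 0 became 4 with DESeq2 (Lyrm7, Prune2, Uqcr10 and Uqcrb), and 0 to 14 when 1 library was left out, with 14 without injured KO replicate 2. Over all genes, the uninjured count of 35 (16 higher in KO) was 107 with TMM (61 higher), 156 with upper quartile scaling (99 higher), 20 with a pseudocount of 0.1 RPM, 55 with edgeR, 663 with DESeq2, 752 with the replicate block, 1 without a filter, 7 with at least 1 RPM in every library, and 3 to 84 with 1 library left out. The injured count of 34 was 427 with DESeq2, 0 with the replicate block, 19 without a filter, 4 with at least 1 RPM in every library, and 0 to 2343 with 1 library left out, the highest without injured KO replicate 2. Between genotypes the numbers join different animals. In uninjured muscle same-numbered libraries correlated at 0.037, 0.256 and 0.373, and WT replicate 1 correlated better with KO replicate 2. In injured muscle they correlated at -0.452, -0.603 and -0.300.

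The largest moves were in genes near the floor in one genotype. With edgeR and DESeq2 the KO injury estimate of Plet1os went from -0.53 to -2.45 and -2.76, and its interaction from -0.52 to -2.41 and -2.71. The WT injury estimate of Hal went from -0.19 to -3.10 and -2.90, and its interaction from 0.63 to 3.32 and 3.12. With a pseudocount of 0.1 RPM the KO estimate was 1.35 for Sec14l5 and -1.35 for Plet1os. Some small injury estimates changed sign, and their cause was not tested. With a pseudocount of 0.1 RPM the KO estimate of Gm13490 was 0.0735, its interaction 0.11 and the interaction of Sec14l5 0.59. The KO estimate of Exoc7 was -0.20 with TMM, -0.30 with upper quartile scaling, -0.24 with edgeR and -0.25 with DESeq2, and its interaction -0.0115, -0.0885, -0.0753 and -0.0694. With 1 library left out, the WT estimate ranged from -0.30 to 0.33 for Plet1os, -0.20 to 0.0744 for Gm13490, -0.12 to 0.0324 for 1190007I07Rik, -0.31 to 0.0672 for Hal and -0.28 to 0.15 for Exoc7. The KO estimate ranged from -0.10 to 0.10 for Gm13490, -0.13 to 0.995 for Sec14l5 and -0.0056 to 0.16 for Exoc7. The interaction ranged from -0.11 to 0.17 for Gm13490, -0.85 to 0.28 for Sec14l5 and -0.0858 to 0.35 for Exoc7. Depth limits the lowest levels: 3 reads are 1.596 RPM in uninjured WT replicate 2.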

Other observations

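Genes outside the 6 separated the genotypes in both states by similar distances, and those named here were chosen after their values were seen. Among the 386 genes lower in KO, Piwil2 ranked 4 by the smaller distance between the highest KO and the lowest WT library (1.46 on the log2(RPM + 1) scale), beside 1.43 for 1190007I07Rik. Its means were 4.96 RPM in uninjured WT, 0.0487 in uninjured KO, 5.47 in injured WT and 0.117 in injured KO muscle. Gm39469 ranked 6 (1.38) and Rpl29, which encodes a ribosomal protein, ranked 7 (1.31), just before Exoc7 (1.29). Pttg1, the securin gene, ranked 11 (1.1). Among the 260 genes higher in KO, Iqgap2, a scaffold of the actin cytoskeleton, ranked 18 (1.67), beside 1.98 for Hal. Myh6, the cardiac myosin heavy chain, ranked 2 (5.02).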
